A study of Saccharomyces cerevisiae with 6 samples.

Results

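The 1816 sites described here are stretches of yeast chromatin at which Thp1-FLAG and Sac3-FLAG were both detected. A site is a Thp1 binding cluster that has at least 1 bp in common with a Sac3 cluster and lies at least 20 kb from the ends of its chromosome. The positions of these clusters chose the members, with the right end of a chromosome set to the highest position in any list, that of Rrm3 included. Of 2485 Thp1 clusters in all, 1952 shared DNA with Sac3, and 136 of these lay too near an end. Away from the ends, 1816 of 2314 Thp1 clusters were thus shared, so the background share is 78.5% (95% Wilson interval 76.8 to 80.1%, counting error only). The number follows from the rule and is a description. Seen from Sac3, 1788 of 2131 clusters away from the ends were shared (83.9%).

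TREX-2 is a complex of Sac3, Thp1, Sus1, Cdc31 and Sem1. It sits at the inner face of the nuclear pore and links transcribed genes with the export of their mRNA. Sac3 is the scaffold of the complex, and Thp1 joins its N-terminal part to form a module that binds nucleic acids. Rrm3 is a DNA helicase of the Pif1 family that helps replication forks through protein obstacles on DNA, such as those at ribosomal DNA, tRNA genes and telomeres. DNA on which Rrm3 accumulates is therefore read as DNA that forks pass with difficulty.

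The sites were mapped by ChIP-chip, in which DNA bound to a tagged protein is recovered with an antibody against FLAG and read on a tiling microarray. All cells were MATa, grew asynchronously in rich YPD medium at 30°C, and carried the alleles trp1-1, his3-11,15, can1-100 and ade2-1 and a leu2 allele. The Thp1 cells held THP1::FLAG::KanMX and the Sac3 cells SAC3::FLAG::KanMX, both with ura3-1 and no deletion of a TREX-2 gene, so each tagged protein was made from its own locus. The Rrm3 cells held Rrm3::FLAG with sac3::KanMX, bar1Δ and ura3::URA3/GPD-Tk(7x), so Rrm3 was mapped in cells that lack Sac3, 1 of the 2 proteins that define the sites. Thp1 and Sac3 each had 1 array and 1 list. The methods state 2 repetitions for Rrm3 in sac3Δ cells, and the single Rrm3 list was taken to combine them. No protein had a replicate list, so the error of a difference between lists is unknown and no test was made. Sites are not replicates of a condition, and intervals given for shares cover counting error only.

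The lists give cluster positions alone, with neither signal nor P-value. They name no genome build, so sites were not assigned to genes and no sequence is shown. Positions below are those of the lists, counted from 1. On chromosome IV the Thp1 list stood apart from the Sac3 list, with 206 of the 498 unshared Thp1 clusters and 5 of the 343 unshared Sac3 clusters. The share of Thp1 clusters that were sites was 55.3% there and ran from 78.4 to 89.0% on the other chromosomes. Lengths, overlaps, spacing and the size of Rrm3 clusters over sites are therefore also given without it.

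Most sites were short. Their median length was 293 bp, with quartiles of 199 and 538 bp, and their mean was 566 ± 1020 bp (SD across sites, n = 1816). The 10th and 90th percentiles were 142 and 954 bp, and the extremes 100 and 18070 bp. In classes that exclude their upper limit, 459 sites measured under 200 bp and 480 measured 200 to 300 bp. Another 375 measured 300 to 500 bp and 330 measured 500 bp to 1 kb. Only 133 sites measured 1 to 5 kb and 39 measured more. On chromosome IV the median was 365 bp over 255 sites, and without that chromosome it was 284 bp over 1561 sites.

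Clusters called for 1 protein alone were shorter, with medians of 166 bp for the 498 Thp1 clusters without Sac3 and 161 bp for the 343 Sac3 clusters without Thp1. Their 90th percentiles were 336 and 346 bp, and their longest members measured 1102 and 1005 bp. A longer cluster meets the rule more easily, so these lengths describe the members and support nothing. The lists hold no signal, so a missing call does not show that the other protein was absent. In the plot of lengths by set, the unshared clusters crowd against the 100-bp minimum that the authors set.

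**Figure D1:**
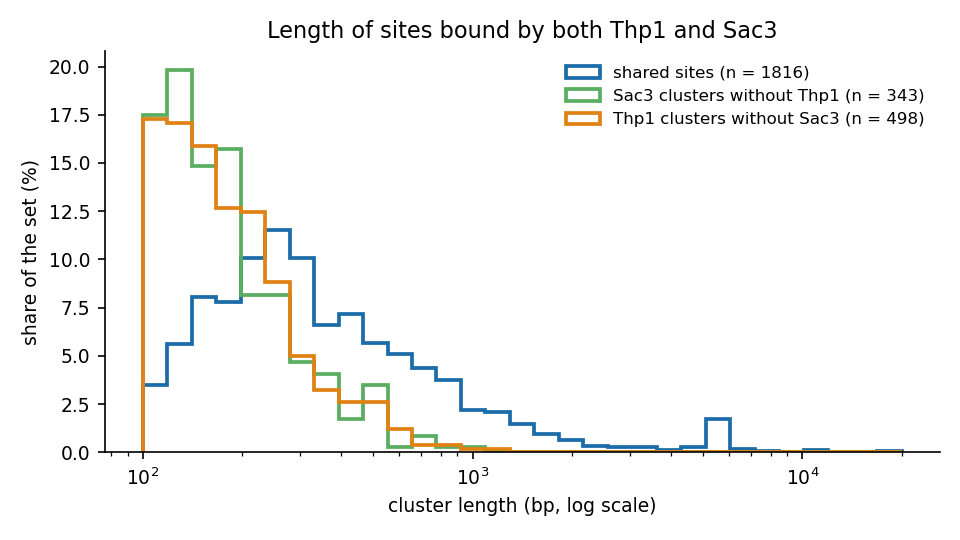
Share of each set (%) by cluster length (bp, log scale) for the 1816 shared sites, the 498 Thp1 clusters without Sac3 and the 343 Sac3 clusters without Thp1, all away from chromosome ends. Shared sites have a median of 293 bp and a separate group of 39 at 5 kb or more, where the other sets have no cluster.

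Some clusters lay close to the limits of the rule on either side. The smallest overlap of a member was 20 bp, at a site of 221 bp on chromosome XV from 411692 to 411912, followed by 25 bp on chromosome XIV and 41 bp on chromosome XII. Only 26 sites had under 100 bp in common with Sac3. Just outside the rule, a Thp1 cluster of 139 bp on chromosome XV from 515831 to 515969 missed the nearest Sac3 cluster by 3 bp. The next nearest non-members missed by 212 and 237 bp, and the median distance of the 498 unshared Thp1 clusters was 1703 bp. At the margin, the member nearest to an end began 20017 bp from it on chromosome XIV, and the nearest shared cluster left out began 19702 bp from the end of chromosome XV.

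Within a site, Sac3 usually covered nearly all of the Thp1 cluster. The median share of a site in common with Sac3 was 98.0%, with a lower quartile of 83.7%, and 818 sites (45.0%) lay wholly inside Sac3. In 95 sites (5.23%) less than 50% was in common. Of all bases in sites, 90.6% were also in Sac3 clusters. These values come from the lists that chose the members and are a description. Chromosome IV stood apart, with a median of 77.7% in common with Sac3 and 27 of 255 sites wholly inside Sac3. On the other chromosomes the median was 100%, and 791 of 1561 sites lay wholly inside Sac3.

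Each protein mostly had 1 cluster per site. There were 1793 sites with 1 Sac3 cluster, 21 with 2 and 2 with 3. In the opposite arrangement, 97 sites lay under 44 Sac3 clusters that each touched more than 1 Thp1 cluster, with at most 4 Thp1 clusters under a single Sac3 cluster. The arrangements differed by chromosome. Of the 23 sites with several Sac3 clusters 11 lay on chromosome IV, and of the 44 Sac3 clusters over several Thp1 clusters 1 did.

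The edges of the proteins were compared in the 1696 pairs of 1 Thp1 and 1 Sac3 cluster that touched no other. The starts differed by a median of 24 bp and the ends by a median of 22 bp, irrespective of direction. Starts lay within 50 bp of each other in 71.6% of pairs and ends in 73.8%. In 206 pairs the starts were identical, in 210 the ends, and in 31 both. These distances are below the 300-bp resolution stated for the array. The smallest difference of starts other than 0 was 4 bp, and 67.4% of the 1490 nonzero start differences were whole multiples of 4 bp, a step at which the lists place cluster limits. Over all pairs the start and end medians, signed, were both 0 bp. The lengths of paired clusters followed each other, with a Spearman's rho of 0.79 across the 1696 pairs, given as a description since both clusters of a pair lie on the same probes.

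Away from chromosome IV, Sac3 clusters were slightly longer than their Thp1 partners. Sac3 was longer in 867 of 1454 pairs (59.6%, interval 57.1 to 62.1%), Thp1 in 544, and 43 had equal lengths, with a median difference of 12 bp. On chromosome IV the order was the opposite, and Thp1 was longer in 206 of 242 pairs, Sac3 in 26 (10.7%, interval 7.44 to 15.3%), with a median difference of -72 bp for Sac3 minus Thp1. The difference there was on both sides, as the Sac3 start lay a median of 34.5 bp inside the Thp1 start and the Sac3 end lay 24 bp inside the Thp1 end. Thp1 enclosed Sac3 on both sides in 168 of the 242 pairs on chromosome IV and in 266 of the 1454 elsewhere.

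**Figure D2:**
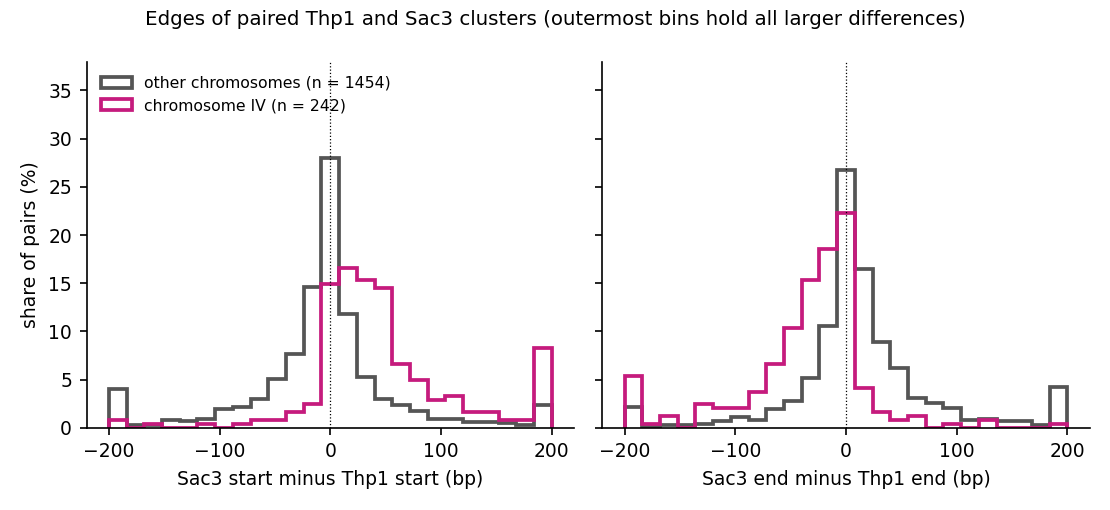
Share of pairs (%) by the difference in position (bp) between Sac3 and Thp1 clusters, starts on the left and ends on the right, for 242 pairs on chromosome IV and 1454 pairs on the other chromosomes. On chromosome IV the starts shift to positive and the ends to negative values, as Sac3 clusters lie inside Thp1 clusters, while the other chromosomes centre near 0.

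The overlap of paired clusters was more complete at longer sites. Of the bases covered by either cluster of a pair, a median of 77.7% was covered by both in sites under 200 bp. This share was 80.6% at 200 to 300 bp, 81.9% at 300 to 500 bp, 84.5% at 500 bp to 1 kb, 94.4% at 1 to 5 kb and 99.3% at 5 kb or more. Without chromosome IV the medians were 77.7, 82.0, 83.6 and 86.6% in the 4 classes under 1 kb and 99.3% at 5 kb or more, in the same order. In bp there was no such order, and start differences had a median of 16 bp in the shortest class, 40 bp at 500 bp to 1 kb (32 bp without chromosome IV) and 8 bp in the longest class, where 12 of 36 pairs had identical starts. Away from chromosome IV, Sac3 was longer in 70.3% of the pairs with a Thp1 cluster under 200 bp, in 57.8% at 200 to 300 bp, in 53.1% at 300 to 500 bp and in 50.4% at 500 bp to 1 kb. The share was higher again in longer sites, with 59.5% of 84 pairs at 1 to 5 kb and 24 of 30 pairs (80%) at 5 kb or more. The classes are set by the Thp1 length, and a short Thp1 cluster is by selection more often the shorter of its pair. No classes by Sac3 length were made, so the fall from the shortest class cannot be told apart from this selection.

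The 39 sites of at least 5 kb made up 2.15% of the sites and 23.8% of their bases. They lay on 13 chromosomes, with 8 on chromosome XII and 7 on chromosome IV, and 16 of them had another site within 1 kb. Lengths were concentrated, since 32 of the 39 measured 5 to 6 kb, against 7 sites of 3 to 4 kb and 5 of 4 to 5 kb. Those 32 lay on 11 chromosomes, and whether they fall on repeated DNA was not determined. The longest were a site of 18070 bp on chromosome XII from 451388 to 469457, one of 11611 bp on chromosome VII from 811598 to 823208, one of 11199 bp on chromosome X from 472831 to 484029, one of 7725 bp on chromosome III from 85011 to 92735 and one of 6241 bp on chromosome XII from 809296 to 815536. The Sac3 clusters over these 5 sites measured 18457, 11611, 11232, 7988 and 5932 bp. The fifth was thus the only one in which Sac3 was the shorter, beginning 381 bp inside the Thp1 start.

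Sites were found on every chromosome and in every class of distance from the chromosome end. Their density ran from 123 sites per Mb on chromosome X and 132 on chromosome II to 199 on chromosome III and 205 on chromosome I. Chromosome IV, with 171 per Mb, lay within this range. Sites covered 8.99% of the span, with 5.15% on chromosome XI as the lowest share and 13.3% on chromosome I as the highest. All of 220 windows of 50 kb held at least 1 site, with a median of 8, quartiles of 6 and 10 and a maximum of 22. There was little change with distance from the chromosome end, as the density was 149 per Mb at 20 to 50 kb, 151 at 50 to 100 kb, 163 at 100 to 200 kb, 157 at 200 to 400 kb and 168 beyond. With 1 list per protein, none of these differences between chromosomes or distances could be set against an error.

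The gap from a site to the next had a median of 3375 bp, with quartiles of 1313 and 7535 bp over 1800 gaps. The smallest was 251 bp, the first length that the rule for joining clusters allows, and the longest was 50274 bp, on chromosome XVI. There were 359 gaps of at most 1 kb (19.9%), of which 183 were at most 500 bp, and 314 gaps of at least 10 kb (17.4%). Medians by chromosome ran from 2638 bp on chromosome XIII to 4765 bp on chromosome IX. Unshared clusters were fewer and so farther from each other, with a median gap of 10729 bp for Thp1 alone and 16817 bp for Sac3 alone. Without chromosome IV the order of these turned round, with 20382 bp for Thp1 alone and 16612 bp for Sac3 alone, whereas the median for sites was 3446 bp. On chromosome IV the median gap of Thp1 alone was 4658 bp and that of sites 3126 bp.

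Close sites were joined into runs where the gap was at most 1 kb. By this limit 1183 sites (65.1%) stood alone and 633 (34.9%) lay in 274 runs. Most runs were pairs, of which there were 218. Another 35 runs held 3 sites, 15 held 4, 4 held 5 and 2 held 6. Runs had a median span of 1525 bp and reached 12269 bp. The share of sites in runs was lowest on chromosome X, at 18.4%, and highest on chromosomes III and VII, at 43.6% on each. It depends on the limit, and was 18.7% with a gap of 500 bp and 57.0% with a gap of 2 kb. Without chromosome IV it was 34.3%. Sites in runs had a median length of 325 bp and sites alone one of 279 bp. The order was the same without chromosome IV, at 322 and 266 bp, and the opposite on it, at 352 and 385 bp.

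**Figure D3:**
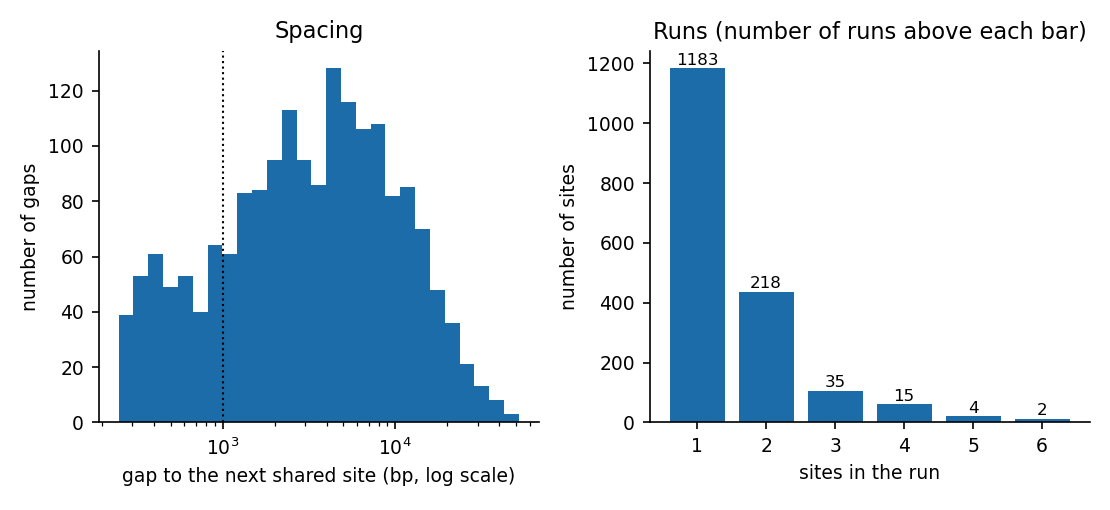
Left, number of gaps between neighbouring shared sites by length (bp, log scale), with the 1-kb limit of a run dotted. Right, number of sites in runs of each size, with the number of runs above each bar, where 1183 sites stand alone and 2 runs hold 6 sites.

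The 6 runs of 5 or more sites lay on 5 chromosomes. The run on chromosome VI from 222716 to 228119 held 6 sites of 360, 145, 551, 624, 596 and 610 bp. The other run of 6, on chromosome VII from 707206 to 712394, had sites of 161 to 1198 bp. Sites took up 53.4 and 60.3% of these spans, and 2 Rrm3 clusters lay over each. The runs of 5 sites were on chromosome XV from 22629 to 32054, chromosome XIII from 357148 to 365984, chromosome XI from 101729 to 107719 and chromosome XIII from 758187 to 762834. Both runs on chromosome XIII lay under a single Rrm3 cluster from end to end, of 9084 and 5858 bp.

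Rrm3 in sac3Δ cells was a separate measurement, which the rule used only in setting the right end of a chromosome. Of the 1816 sites, 1812 (99.8%, interval 99.4 to 99.9%) had at least 1 bp in common with an Rrm3 cluster, against a background of 98.6% for all Thp1 clusters and 99.7% for all Sac3 clusters away from the ends. The share is at its ceiling and lies near the background, so it is not a result about the sites. Of all bases in sites, 98.6% were inside Rrm3 clusters, which cover 42.4% of the span away from the ends. A total of 1711 sites (94.2%, interval 93.0 to 95.2%) were wholly inside Rrm3, against a background of 92.2% for Thp1 and 95.9% for Sac3 clusters, and 12 sites were touched by more than 1 Rrm3 cluster.

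The Rrm3 coverage of sites lay above that of Thp1 clusters without Sac3, and close to that of Sac3 clusters without Thp1. Thp1 clusters without Sac3 had an Rrm3 cluster in 469 of 498 cases (94.2%, interval 91.8 to 95.9%) and lay wholly inside in 84.9%. Sac3 clusters without Thp1 had one in 339 of 343 cases (98.8%, interval 97.0 to 99.5%) and lay wholly inside in 94.5%. Among clusters under 200 bp, the shares with Rrm3 were 99.1% of 459 sites, 95.6% of 319 Thp1 clusters without Sac3 and 98.7% of 236 Sac3 clusters without Thp1. Without chromosome IV, which supplies many of the unshared Thp1 clusters, the shares were 99.7% of 1561 sites and 94.5% of 292 Thp1 clusters without Sac3. The lists have no replicates, so these differences were not tested.

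The 4 sites without Rrm3 were all short. They measured 191 bp on chromosome XIII from 489639 to 489829, 135 bp on chromosome XV from 688454 to 688588, 134 bp on chromosome III from 271241 to 271374 and 125 bp on chromosome V from 499410 to 499534. The Sac3 clusters over them measured 240, 147, 197 and 741 bp. No site of 200 bp or more was without Rrm3.

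Over a site, the Rrm3 cluster was usually several times as long as the site. Its median size was 1250 bp (interval of the median 1197 to 1293 bp, from order statistics), with quartiles of 717 and 2091 bp, extremes of 137 and 38099 bp, and a median ratio to the site of 3.35. This ratio was 1.96 on chromosome IV and 3.62 without it. The median size was 1003 bp on chromosome IV, the lowest of all chromosomes, and 1280 bp without it. Elsewhere it ran from 1091 bp on chromosome X to 1534 bp on chromosome XII. At 1109 sites (61.1%, interval 58.8 to 63.3%) the Rrm3 cluster measured at least 1 kb, against a background of 55.5% for all Thp1 clusters and 59% for all Sac3 clusters away from the ends. These backgrounds include the sites or the Sac3 clusters over them. The share was 35.3% of the 498 Thp1 clusters without Sac3 and 52.2% of the 343 Sac3 clusters without Thp1.

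Long clusters are met more often than short ones by any mark on the genome, so the size over sites has to be read beside the size over Rrm3 bases in general. Away from the ends, the 6812 Rrm3 clusters had a median of 453 bp. Taken per base, the Rrm3 cluster over a base had a median of 1050 bp, with quartiles of 551 and 1946 bp. The median over sites was 1250 bp (interval 1197 to 1293 bp), above this value. The medians over sites under 200 bp and of 200 to 300 bp, 939 and 996 bp, lay below it. A long site can only be covered by a long Rrm3 cluster, which the value per base does not allow for. Without chromosome IV, the medians were 1065 bp per Rrm3 base and 1280 bp over sites (interval 1228 to 1329 bp). On chromosome IV they were 943 and 1003 bp (interval over sites 893 to 1170 bp). Neighbouring sites can lie under the same Rrm3 cluster, so these intervals are too narrow, and no test against the value per base was made. Over Thp1 clusters without Sac3 the median was 765 bp (interval 716 to 844 bp), below the value per base, and over Sac3 clusters without Thp1 it was 1098 bp (interval 917 to 1279 bp).

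The size of the Rrm3 cluster rose with the length of the site, as it must for long sites that are covered. It had a median of 939 bp over sites under 200 bp, 996 bp at 200 to 300 bp, 1216 bp at 300 to 500 bp, 1530 bp at 500 bp to 1 kb, 2706 bp at 1 to 5 kb and 6375 bp at 5 kb or more. The first 2 values lay below the 1050 bp per Rrm3 base. Without chromosome IV the medians were 939, 1030, 1313, 1670, 2826 and 6453 bp, of which the first 2 lay below the 1065 bp per base there. Across the 1812 sites Spearman's rho between the lengths was 0.38, and 0.34 for the 1773 sites under 5 kb, given as descriptions. The ratio of Rrm3 to site length fell from a median of 6.24 in the shortest class to 1.12 in the longest, with the same limits without chromosome IV, so that the longest sites were matched by Rrm3 clusters of nearly their own length. Within a length class, Thp1 clusters without Sac3 had lower medians, of 764, 738, 817 and 849 bp in the 4 classes up to 1 kb. Sac3 clusters without Thp1 had medians of 910, 1471, 1417 and 1898 bp. These lay below the median of sites in the class under 200 bp and above it in the other classes. At 500 bp to 1 kb the medians rest on only 16 Thp1 and 12 Sac3 clusters. Without chromosome IV, the 3 classes under 500 bp had medians of 795, 686 and 768 bp for Thp1 without Sac3.

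**Figure D4:**
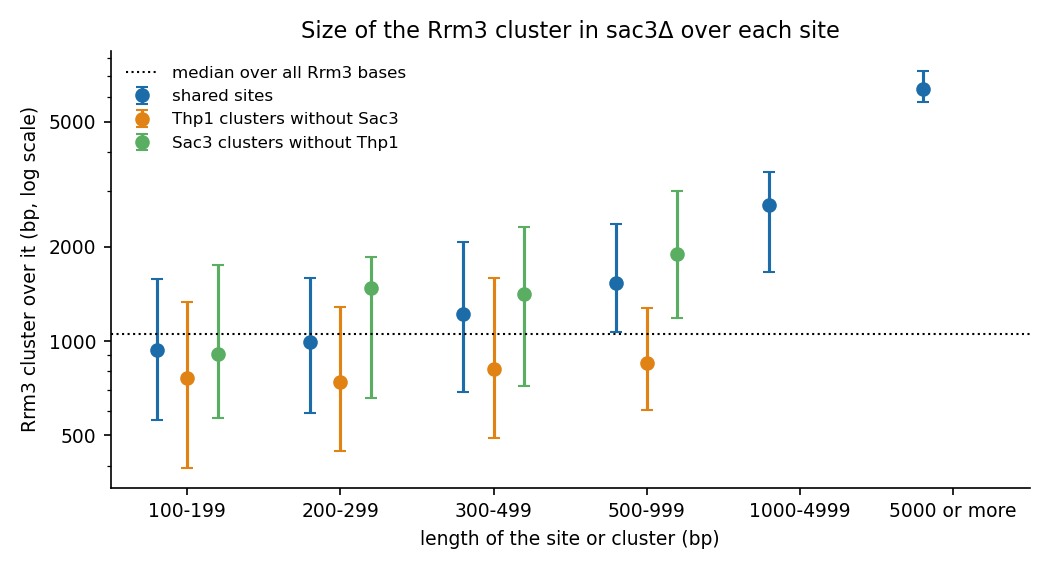
Size of the Rrm3 cluster in sac3Δ cells over a site or cluster (bp, log scale) by the length of the site (bp). Points are medians and bars span the quartiles, for shared sites and for clusters called for Thp1 only or Sac3 only. Medians over sites rise from 939 to 6375 bp, and the dotted line marks the median of 1050 bp over all Rrm3 bases.

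Seen from the Rrm3 list, 1551 of 6812 clusters (22.8%) lay over a site, and they held 46.8% of the Rrm3 bases. They had a median of 1078 bp, whereas the 5261 Rrm3 clusters over no site had a median of 363 bp. The share over a site was 1.29% for Rrm3 clusters under 300 bp, 20.1% at 300 bp to 1 kb, 59.5% at 1 to 3 kb and 93.8% for the 144 of at least 3 kb. All 48 Rrm3 clusters of at least 5 kb lay over a site. A longer cluster has more bases to meet a site, and how much of this order comes from length alone was not tested. Most of them, 1338, held a single site, while 175 held 2, 31 held 3, 4 held 4, 2 held 5 and 1 held 15.

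That last Rrm3 cluster was the longest, at 38099 bp, and lay on chromosome XII from 451388 to 489486. Its 15 sites measured 129 to 18070 bp, and 13 of them were under 1 kb. Sac3 had 6 clusters over the same sites, of 1665 to 18457 bp. Sites took up 27492 bp of the Rrm3 cluster (72.2%) and those Sac3 clusters 34284 bp, so that the same stretch was broken into the most pieces for Thp1 and was unbroken for Rrm3. Chromosome XII carries the repeated ribosomal RNA genes of yeast as background, and whether these sites fall on them was not determined. The next longest Rrm3 clusters over sites measured 13860 bp on chromosome VII, 11274 bp on chromosome X, 9084 bp on chromosome XIII, 8656 bp on chromosome XVI and 8130 bp on chromosome V, with 3, 1, 5, 3 and 3 sites. Without chromosome XII, the median Rrm3 cluster over a site was 1229 bp.

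Many of the gaps between close sites lay inside Rrm3 clusters. No background share was taken from gaps of the same length elsewhere, so this is a description. Bases at 1 to 100 bp from a cluster were mostly inside Rrm3 in every set. The shares were 84.2% for sites, 75.7% for Thp1 clusters without Sac3 and 90.4% for Sac3 clusters without Thp1. Of the 359 gaps of at most 1 kb, 241 (67.1%, interval 62.1 to 71.8%) were wholly inside Rrm3 clusters, and 75.3% of their bases were. Sac3 filled 53 of the same gaps. In gaps of 1 to 2 kb, Rrm3 filled 29 of 285, and in the 480 gaps of 2 to 5 kb it filled 1. The share of bases in Rrm3 fell from 49.5% in gaps of 1 to 2 kb to 42.6% at 2 to 5 kb, 37.2% at 5 to 10 kb and 32.8% above. Of the 274 runs, 148 (54.0%) lay under 1 Rrm3 cluster from end to end. Sites in runs also had larger Rrm3 clusters than sites alone, with medians of 1877 and 1019 bp, or 2052 and 1049 bp without chromosome IV. A short gap is filled more easily than a long one, and an Rrm3 cluster over several sites counts once for each. How much of these differences comes from that was not tested.

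Around the sites Rrm3 coverage declined over short distances. Bases outside all Thp1 and Sac3 clusters were grouped by their distance from the nearest cluster. Where that was a site or its Sac3 cluster, 84.2% of bases at 1 to 100 bp were inside Rrm3, 53.3% at 101 to 250 bp, 36.6% at 251 to 500 bp, 34.1% at 501 to 1000 bp and 27.3% beyond 5 kb. The shares next to Thp1 clusters without Sac3 were lower, at 75.7, 44.0 and 28.1% in the first 3 distance classes, and those next to Sac3 clusters without Thp1 were higher, at 90.4, 62.5 and 42.0%. Beyond 5 kb the sets had 28.5 and 26.6%, near the 27.3% of the sites. Of the 498 Thp1 clusters without Sac3, 206 lay on chromosome IV, and these shares are not given without that chromosome. Neighbouring bases are not independent, so no interval is given.

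**Figure D5:**
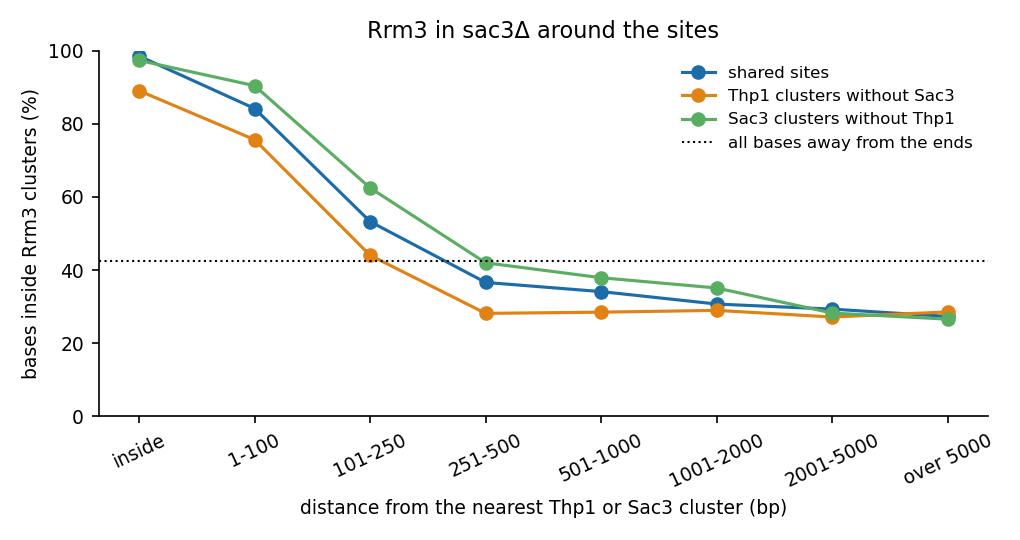
Share of bases inside Rrm3 clusters of sac3Δ cells (%) by distance (bp) from the nearest Thp1 or Sac3 cluster. Lines are split by whether that cluster is a shared site or was called for 1 protein only. Coverage falls from 98.5% inside the footprint of shared sites to 36.6% at 251 to 500 bp, and the dotted line marks the 42.4% of all bases away from the ends.

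Within their Rrm3 clusters, sites showed no preference for the middle, which held the fewest. Position was measured for the 1300 sites wholly inside an Rrm3 cluster at least 2 times their length, as the share of the free Rrm3 length that lay on the side of lower coordinates. In 5 equal parts of this range there were 263, 235, 202, 234 and 366 sites, so the fewest (15.5%) lay in the middle part and the most (28.2%) in the part nearest to the higher coordinates. The median extension of Rrm3 beyond the site was 158 bp on the shorter side and 852 bp on the longer side. Thp1 clusters without Sac3 had 84, 58, 57, 64 and 86 of 349 in the same parts, and Sac3 clusters without Thp1 had 58, 52, 47, 70 and 77 of 304. In both of these sets, too, the middle part held the fewest. The 2 end parts were nearly equal for Thp1 clusters without Sac3, at 84 and 86. For Sac3 clusters without Thp1 the part nearest to the higher coordinates held the most. Strand and gene direction were not known for these positions.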

How the data were processed

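Binding clusters of Thp1-FLAG, Sac3-FLAG and Rrm3-FLAG in sac3Δ cells were analyzed, from 4 of the 6 samples; Rrm3-FLAG in thp1Δ cells was not analysed here. The authors computed IP/SUP signal and P-values per probe in the Tiling Array Suite software. Clusters were ranges of positive signal with P-value under 0.01 that ran for at least 100 bp, joined across gaps of up to 250 bp. The Rrm3 list was taken to combine 2 quantile-normalized repetitions. The deposited files hold only these cluster positions, in bp. In the 3 lists the shortest cluster was 100 bp and the smallest gap 251 bp. The genome build is not given in the sources used here, so no gene was named. A table of R64 gene names was not used. 0 columns of other samples were set aside.

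A Thp1 cluster counted as a site when any base, 1 bp or more, lay in a Sac3 cluster, outside 20 kb from each end, with the right end set to the highest position in any list. The span left was 11429093 bp. Starts in the files were read as counted from 0, so length is end minus start in the files, and printed starts are 1 higher. Where several Rrm3 clusters touched a site, that with most bases in common was taken. Shares have 95% Wilson intervals and medians have 95% intervals from order statistics. Precision is limited by the number of arrays, 1 each for Thp1 and Sac3, and no test between lists was made. The functions were tested on simulated intervals. Sites named were the 5 longest, the 5 runs with most sites (6 with ties), those under the longest Rrm3 cluster, where 15 tie, those without Rrm3 and those nearest to each limit. The next longest Rrm3 clusters were added after their values were seen. Members, lists and limits were chosen with earlier results of these data known. Alternatives were a 50% overlap, clusters of at least 300 bp, other margins, leaving out chromosome IV or XII, Sac3 clusters as sites, leaving out sites of at least 5 kb, other gaps in runs and other rules for Rrm3. Python 3.11.15, numpy 2.4.6, pandas 2.3.3, scipy 1.17.1 and matplotlib 3.10.9 were used.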

Additional observations from a re-analysis of the deposited data

How the results depend on the processing

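Of 72 values recomputed under 12 alternatives for 9 results, 54 stayed inside the interval of the reported value, or within 1.5 times for the number of sites, and 18 did not. These intervals cover counting error over sites and do not measure a spread between processing choices. For the share of bases in Rrm3, the interval was computed as if the share were one of sites, so it is only a rough limit. Clusters of at least 300 bp moved the most. They left 736 sites with a median length of 585.5 bp, a median gap of 8167 bp, 20.9% of sites in runs, 100% with Rrm3, a median Rrm3 cluster of 1762 bp, and Sac3 longer in 56.8% of pairs. This follows from the removal of short clusters. When a common part of 50% was required of each cluster, 66.6% of Thp1 clusters were sites, with a median gap of 4308.5 bp, 27.9% in runs and a median Rrm3 cluster of 1191 bp. Without chromosome IV, 84.2% of Thp1 clusters were sites, and Sac3 was longer in 59.6% of pairs against 52.7% with it. With Sac3 clusters as sites, 83.9% were shared and 99.2% of their bases were in Rrm3. The share in runs was 18.7% with gaps of 500 bp and 57.0% with 2000 bp. With at least 50% of a site required inside Rrm3, 99.4% of sites had Rrm3. Other margins, leaving out chromosome XII, leaving out sites of at least 5 kb, and taking the longest Rrm3 cluster moved no value outside its interval.

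No paired analysis was possible because Thp1 and Sac3 have 1 list each and the 2 Rrm3 repetitions are in 1 list, so leaving out a repetition was not possible either. A stricter P-value could not be tried, as the lists hold none. Shares near 100% have little room to move and say little about stability.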
